A study of Mus musculus with 21 samples.

Results

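Islets of Langerhans were compared for 38 genes of the interferon response and of antigen presentation by major histocompatibility complex (MHC) class I. The genes were given as a list of symbols and matched to the 55536 gene identifiers of the count files. All 38 were found, and all 38 were among the 27229 genes that had at least 10 reads over the 21 samples and were tested. The islets came from CBA males that received a regular diet (RD), a high-fat diet (HFD) or the same high-fat diet with O304 mixed in at 0.8 mg per g (HFD-O304). O304 is a small molecule that activates AMP-activated protein kinase (AMPK), the energy sensor of the cell. Diets started at 10 weeks of age and islets were taken at 20 weeks, although the methods of the study give 9 weeks of diet. Each group had 7 samples, and each sample was RNA from 150 hand-picked islets of a pool of 5 mice, so that values describe pools and not single animals. The libraries held 13809266 to 48922569 read pairs on genes. HFD-O304 replicate 1 is titled HFD-O304 but carries the diet tag of HFD, and it was grouped by its title, with counts also given without it.

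Interferons are secreted proteins that cells release when they sense viral nucleic acid. They bind receptors on neighbouring cells, Janus kinases phosphorylate STAT proteins, and STAT complexes with IRF9 bind the interferon-stimulated response element (ISRE) of antiviral genes. Interferon gamma acts through the GAS element, and IRF1 then carries much of its effect on MHC class I genes. Class I molecules display peptides that the proteasome cuts from cytosolic proteins, and in inflamed tissue the catalytic subunits PSMB8, PSMB9 and PSMB10 replace PSMB5, PSMB6 and PSMB7 to form the immunoproteasome. In islets, class I display is known from autoimmune diabetes, where beta cells show it to CD8+ T cells.

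The response elements named above are shown first, and not all members held one. RefSeq promoter windows (GRCm38.p6), which run from 250 bases before to 50 bases after each annotated start, were at hand for 34 of the 38 members, and Mx1, Nlrc5, Tap2 and Usp18 had none. The ISRE core, GAAA with a repeat of GAAA after any 2 bases, was searched on both strands and was present in the windows of 17 of these 34 genes, beside 3.99% of the 27025 genes with a window. Of the 11 members with a window that passed the test in at least 1 diet comparison 5 held the core (45.5%), and of the 23 that passed in none 12 held it (52.2%). The 5 members that passed and held the core are printed with the core in capitals, as far as the part before the start or a short stretch around the core. Positions count from the annotated start as 0, and TTTC with a repeat of TTTC after 2 bases is the same core read on the other strand. In Ifit1 (chr19:34640639-34640888, plus strand) the cores spanned positions -104 to -95 and -85 to -76, and in Irf2 (chr8:46739495-46739744, plus strand) the core spanned -241 to -232. The cores of Psme1 (chr14:55578493-55578522, plus strand), Ifih1 (chr2:62646206-62646233, minus strand) and Ddx58 (chr4:40239804-40239833, minus strand) began 9, 32 and 2 bases after the start.
Ifit1: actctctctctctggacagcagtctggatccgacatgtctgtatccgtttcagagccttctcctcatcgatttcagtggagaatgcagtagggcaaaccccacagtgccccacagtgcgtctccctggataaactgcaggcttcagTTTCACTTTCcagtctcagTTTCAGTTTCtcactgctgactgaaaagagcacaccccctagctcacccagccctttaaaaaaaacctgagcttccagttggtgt
Irf2: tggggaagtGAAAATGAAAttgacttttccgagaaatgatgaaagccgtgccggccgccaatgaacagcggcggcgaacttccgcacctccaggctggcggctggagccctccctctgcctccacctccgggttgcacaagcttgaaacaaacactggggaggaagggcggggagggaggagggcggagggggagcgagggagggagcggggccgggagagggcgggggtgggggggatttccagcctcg
Psme1: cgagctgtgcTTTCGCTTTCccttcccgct
Ifih1: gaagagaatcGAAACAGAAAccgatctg
Ddx58: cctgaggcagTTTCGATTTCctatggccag

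The GAS core TTCNNNGAA was present in 8 of the 34 members (23.5%) and in 9.55% of all genes with a window. Among the 11 members with a window that passed in at least 1 comparison it was held by Irf1, Irf2 and Psmb8 (27.3%). Of the 23 that passed in none, 5 held it (21.7%). For Irf1 (chr11:53769914-53769942, plus strand) it lay at positions -90 to -82, and for Psmb8 (chr17:34198088-34198116, plus strand) at -97 to -89. Both are printed with the core in capitals and were chosen after the values were seen. A match of letters is a description of the reference genome, not a bound site, and the reference is C57BL/6J and not CBA.
Irf1: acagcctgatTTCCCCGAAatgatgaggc
Psmb8: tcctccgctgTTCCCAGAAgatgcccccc

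B2m, H2-K1 and H2-D1 had the highest levels of the 38 members. Per length of exon, the level in RD islets was highest for B2m, the light chain of every class I molecule, at 124 ± 10.3 CPM per kb (mean ± SD, n = 7), where CPM are read pairs per 1000000 read pairs on genes, with the library totals scaled by TMM. The class I heavy chains H2-K1 and H2-D1 followed at 52.4 ± 3.29 and 39.0 ± 2.78 CPM per kb. Lowest in this order were Nlrc5, the transactivator of class I genes, at 0.0826 ± 0.0324 CPM per kb, and Cxcl10, a chemokine that draws T cells, at 0.0903 ± 0.0880. The last 2 did not differ beyond their spread, and neither did Psmb8 (3.52 ± 0.296) and its neighbour Irf2 (3.51 ± 0.186). The median of all genes tested was 0.652 CPM per kb, and 32 of the 38 members lay above it. Of the genes for the interferons themselves, 9 were looked at, and pairs that match several of these similar genes are not in the counts. Ifna1, Ifnb1, Ifne, Ifng and Ifnl2 had 0 reads in all 21 samples, and Ifna2, Ifna4, Ifnk and Ifnl3 had 1, 2, 1 and 5 reads over the 21 samples. A count of 0 allows up to 3 reads in a library, which is 0.217 CPM by the unscaled total of the shallowest library, and covers counting error only. Islets hold several cell types, so that in these bulk values fewer cells of a type and less RNA per cell cannot be told apart.

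**Figure D1:**
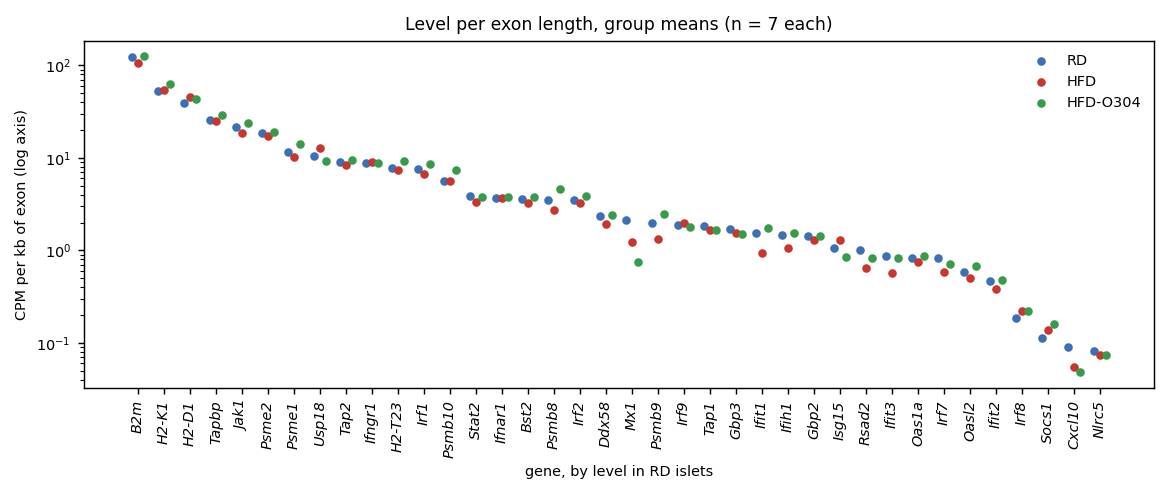
Level of each of the 38 members per kb of exon (CPM per kb, log axis), as the mean of 7 samples in islets of RD (blue), of HFD (red) and of HFD-O304 mice (green), ordered by the level in RD islets. The members span from B2m at 124 to Nlrc5 at 0.0826 CPM per kb in RD islets, and Mx1, Psmb8, Psmb9 and Ifit1 show visible gaps between the groups.

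Among the 3 comparisons, HFD-O304 with HFD islets held most of the members' differences, as it did for all genes tested. Of all genes, 3230 passed there, 963 between HFD and RD islets and 356 between HFD-O304 and RD islets. Between HFD-O304 and HFD islets 13 of the 38 members passed edgeR's quasi-likelihood test at an adjusted p under 0.01, 11 of them higher and 2 lower in HFD-O304 islets. In this comparison 11.9% of all genes tested passed, and 18.4% of those that had a mean of 10 or more normalized counts, a level that 37 of the 38 members reached. By direction, 5.08% of all genes tested were higher and 6.79% lower. The median log2 fold change of the members was 0.22, against 0.027 for all genes tested, and 28 of the 38 values were above 0. In HFD vs RD islets 4 members passed, all 4 lower in HFD islets (Ifit1, Mx1, Ifih1 and Jak1). In this comparison 3.54% of all genes passed (5.55% of those at that level) and 1.54% were lower (2.44% of those at that level). The median of the members was -0.14 (all genes -0.0044), and 29 of 38 values were below 0. Only Psmb10 (higher) and Mx1 (lower) passed in HFD-O304 vs RD islets, 2 of 38 members beside 1.31% of all genes (0.404% higher and 0.903% lower). Of the genes at that level 2.06% passed in either direction, 0.631% higher and 1.43% lower. The median of the members was 0.048 (all genes 0.0078). Of the 38 members, 25 passed in no comparison. Samples did not overlap for 6 members between HFD-O304 and HFD islets, for 3 between HFD and RD islets and for 4 between HFD-O304 and RD islets, beside 9.61%, 2.1% and 2.46% of all genes at that level. The comparisons share samples, HFD-O304 vs HFD and HFD vs RD the HFD samples in particular, so that their values are set side by side and are not independent of each other. Without HFD-O304 replicate 1, the sample with the differing diet tag, 10 members were higher and 2 lower in HFD-O304 vs HFD islets (10.3% of all genes), and Mx1 alone passed in HFD-O304 vs RD islets (0.871% of all genes).

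**Figure D2:**
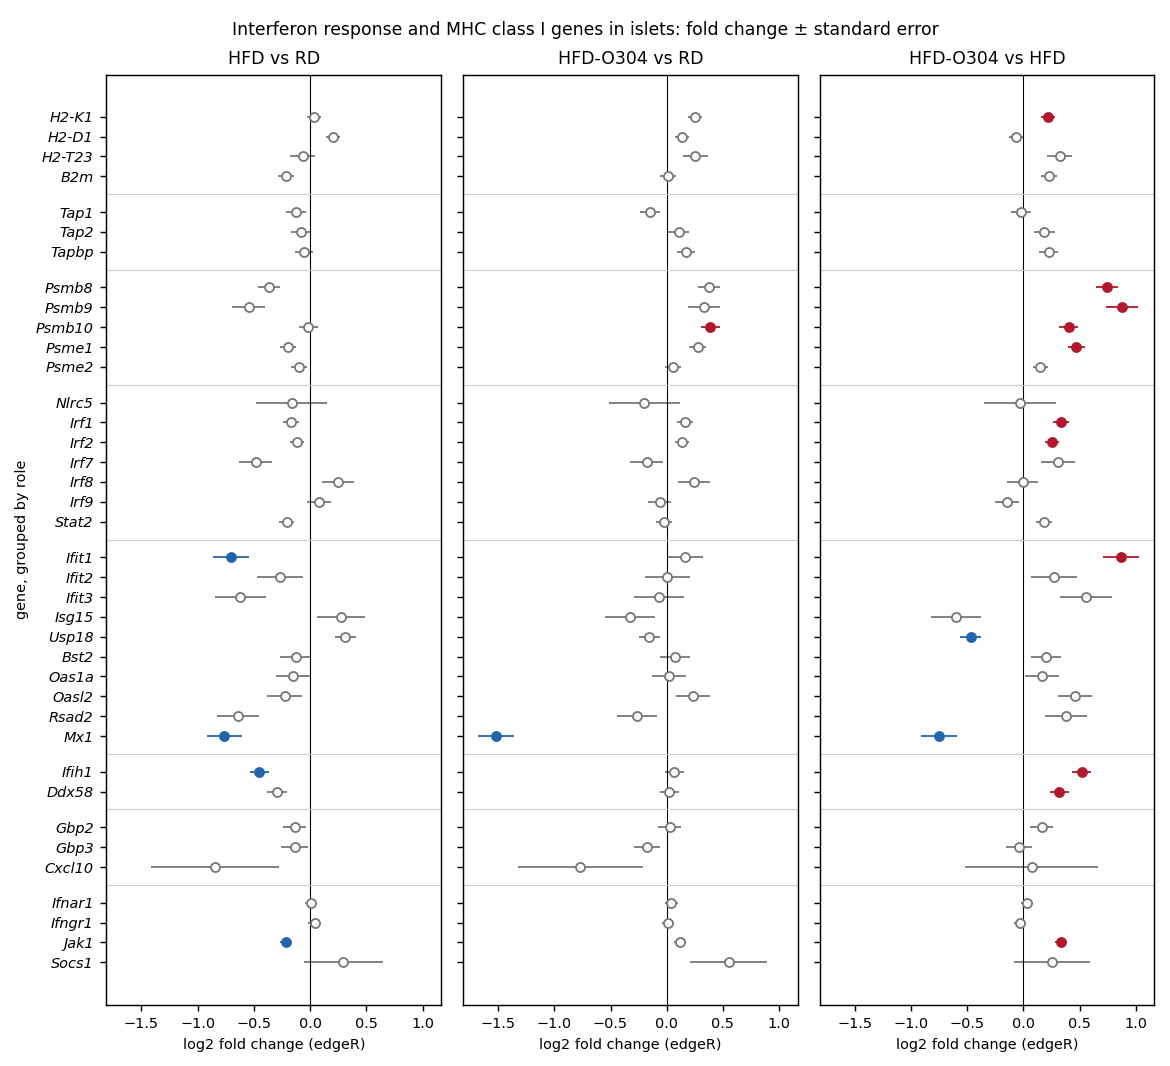
The log2 fold change (point) and standard error (bar) of the 38 members by edgeR in HFD vs RD, HFD-O304 vs RD and HFD-O304 vs HFD islets, grouped by role, with filled red points for members that were higher and filled blue points for members that were lower at an adjusted p under 0.01 and open grey points for the others. The filled points number 4, 2 and 13 in the 3 panels, and 4 of the 5 immunoproteasome and PA28 genes are filled in HFD-O304 vs HFD islets.

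Psmb8, Psmb9, Psmb10 and Psme1, 4 of the 5 genes of the immunoproteasome and its activator, rose in HFD-O304 compared with HFD islets, and Psme2 did not pass. For the 5 genes the median log2 fold change was 0.47. Psmb8 encodes the inducible subunit that takes the place of PSMB5. Its normalized counts ran from 379.9 to 493 (median 420.0) in RD islets, 237 to 442 (median 325) in HFD islets and 528 to 616 (median 549) in HFD-O304 islets. Every HFD-O304 sample was above every sample of the other groups, while RD and HFD samples overlapped. The difference of HFD-O304 from HFD islets was a log2 fold change of 0.74 (standard error, SE, 0.10, adjusted p = 2.94e-06), and that from RD islets, 0.37 (adjusted p = 0.0278, SE 0.10), missed the threshold. HFD islets differed from RD islets by -0.37 (adjusted p = 0.0172, SE 0.10), which also missed it. Psmb9, which replaces PSMB6, ran from 177 to 329 (median 272) in RD, 100.6 to 231 (median 171) in HFD and 267 to 391 (median 337) in HFD-O304 islets. HFD and HFD-O304 samples did not overlap, and RD samples reached into both ranges. Its rise in HFD-O304 vs HFD islets, with a log2 fold change of 0.88 (adjusted p = 6.59e-05, SE 0.15), had the largest value among the 38 members. In HFD vs RD islets its value was -0.55 (adjusted p = 0.0187, SE 0.15).

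Psmb10, the inducible counterpart of PSMB7, had overlapping levels in RD and HFD islets. Normalized counts were 306 to 396 (median 337) in RD, 296 to 417 (median 344) in HFD and 399.7 to 533 (median 424) in HFD-O304 islets, and all HFD-O304 samples were above all RD samples. It rose against HFD islets, with a log2 fold change of 0.40 (adjusted p = 0.00107, SE 0.09), and against RD islets, 0.39 (adjusted p = 0.00911, SE 0.09). The difference from RD islets was no longer called when any 1 of 14 samples was left out, with an adjusted p of up to 0.0320. The value of Psmb10 in HFD vs RD islets was -0.01. Psme1 and Psme2 encode the alpha and beta subunits of PA28, a cap that opens the proteasome. Psme1 ran from 847 to 1003 (median 928) in RD, 658 to 1011 (median 781) in HFD and 1045 to 1179 (median 1121) in HFD-O304 islets, where the lowest HFD-O304 sample lay above the highest sample of the other groups. It rose in HFD-O304 vs HFD islets (log2 fold change 0.47, adjusted p = 3.01e-05, SE 0.07). Psme2, its partner in the same ring, had medians of 1187, 1135 and 1255 and did not pass in any comparison (HFD-O304 vs HFD islets, 0.15, adjusted p = 0.139, SE 0.07).

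**Figure D3:**
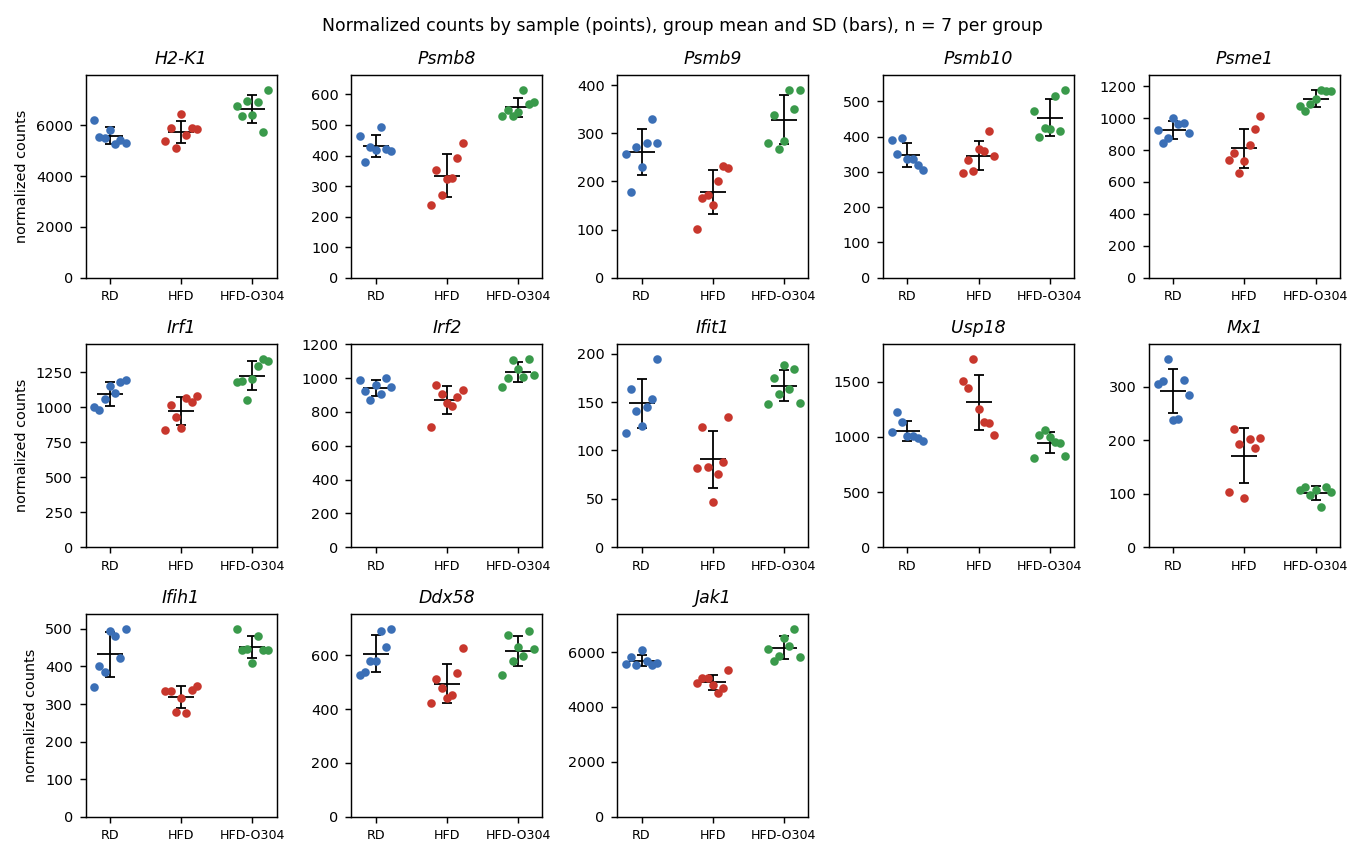
Normalized counts of the 13 members that passed in at least 1 comparison, with a point for each sample and bars for the mean and SD of the 7 samples of the RD group (blue), the HFD group (red) and the HFD-O304 group (green), on axes that start at 0. Psmb8, Psmb9, Psme1, Ifit1, Ifih1 and Jak1 show no overlap between HFD and HFD-O304 samples, and Mx1 steps down from RD over HFD to HFD-O304 islets.

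To set each inducible gene beside its constitutive counterpart, ratios of read pairs were taken within each library, a comparison chosen after the values were seen, so that its tests are not independent of the fold changes given before. Such ratios do not depend on the scaling between libraries. They compare read pairs and not molecules, since the genes differ in length. The ratio of Psmb8 to Psmb5 ranged from 0.993 to 1.39 (median 1.02) in RD, from 0.494 to 1.09 (median 0.746) in HFD and from 1.22 to 1.65 (median 1.42) in HFD-O304 islets. HFD-O304 and HFD samples did not overlap, and the mean log2 ratio differed by 0.93 (exact two-sided permutation test, p = 5.83e-04, the smallest that 7 against 7 samples can give, 0.00291 after adjustment over the 15 ratio tests). For Psmb9 to Psmb6 the medians of RD, HFD and HFD-O304 islets were 0.0880, 0.0600 and 0.125, and HFD-O304 differed from HFD islets by 1.12 on the log2 scale, again with no overlap (exact permutation test, adjusted p = 0.00291). The corresponding difference for Psmb10 to Psmb7 was 0.52 (exact permutation test, adjusted p = 0.0122), with overlapping samples. The 15 tests also held the ratios of Psme1 to Psme2 and of Psmb9 to Tap1. For Psme1 to Psme2 this difference was 0.33 (exact permutation test, adjusted p = 0.0197), with overlapping samples. The constitutive genes did not pass edgeR's test in this comparison, and their log2 fold changes were -0.17 for Psmb5, -0.21 for Psmb6 and -0.13 for Psmb7. Against RD islets, the HFD-O304 ratios differed by 0.32 for Psmb8 to Psmb5 (exact permutation test, adjusted p = 0.0201), 0.38 for Psmb9 to Psmb6 (adjusted p = 0.0585, exact) and 0.38 for Psmb10 to Psmb7 (adjusted p = 0.0197, exact).

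Psmb9 and Tap1 are transcribed in opposite directions from a shared promoter region. Tap1 encodes a subunit of the transporter that brings peptides into the endoplasmic reticulum. The 225 bases between the RefSeq starts (chr17:34187331-34187555, printed along the strand of Tap1, chosen after the values were seen) hold neither core.
Psmb9-Tap1: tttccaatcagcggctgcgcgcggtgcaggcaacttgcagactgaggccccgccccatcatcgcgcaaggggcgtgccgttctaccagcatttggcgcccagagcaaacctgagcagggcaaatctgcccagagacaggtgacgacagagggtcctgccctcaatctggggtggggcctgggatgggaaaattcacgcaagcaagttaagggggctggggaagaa

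Tap1 ran from 317 to 409.8 (median 377) in RD, 278 to 384 (median 341) in HFD and 275.3 to 393 (median 332) in HFD-O304 islets, with overlap between all groups. Its log2 fold change in HFD-O304 vs HFD islets was -0.02 (adjusted p = 0.914, SE 0.09). The ratio of Psmb9 to Tap1 within a library had medians of 0.728, 0.511 and 1.02 over RD, HFD and HFD-O304 islets. The pair was chosen after Psmb9 was seen to rise and Tap1 not, so that the ratio is given as a description, without its p-values. The mean log2 ratio was 0.94 higher in HFD-O304 than in HFD islets, 0.49 higher than in RD islets, and HFD differed from RD islets by -0.45. In the annotation of the count files the ends of Psmb9 and Tap1 overlap on opposite strands, which the stranded counts used here keep apart.

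**Figure D4:**
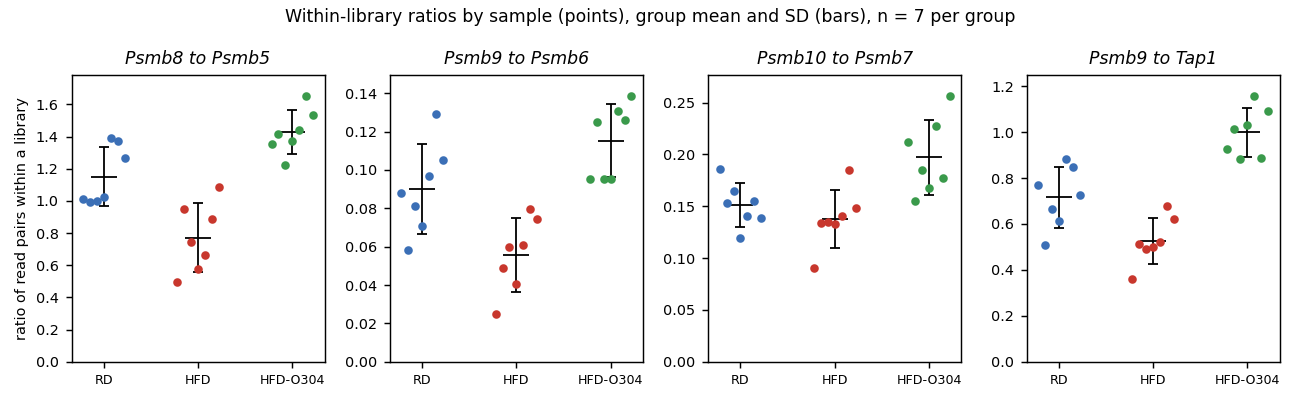
Ratios of read pairs within a library for Psmb8 to Psmb5, Psmb9 to Psmb6, Psmb10 to Psmb7 and Psmb9 to Tap1, with a point for each sample and bars for the mean and SD of 7 samples per group. In the panels of Psmb8 to Psmb5, Psmb9 to Psmb6 and Psmb9 to Tap1 the HFD-O304 samples lie wholly above the HFD samples.

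None of the 3 genes of peptide transport and loading passed in any comparison. Tap2, the second subunit of the peptide transporter, had log2 fold changes of -0.08 (HFD vs RD islets) and 0.19 (HFD-O304 vs HFD islets). Tapbp, which bridges the transporter to class I molecules, had -0.06 and 0.23 (adjusted p = 0.0546, SE 0.08). Among the class I chains only H2-K1 passed, and only in HFD-O304 vs HFD islets. Its normalized counts were 5252 to 6218 (median 5509) in RD, 5088 to 6429 (median 5853) in HFD and 5727 to 7405 (median 6746) in HFD-O304 islets, and the ranges overlapped. The rise of 0.22 (adjusted p = 0.00993, SE 0.06) lay just inside the threshold and was called in 8 of the 33 alternative fits, with adjusted p from 1.87e-04 to 0.113. It was lost when any 1 of 17 samples was left out. H2-D1, the second classical heavy chain, ran from 3257 to 3890.1 (median 3765) in RD, 3763 to 4842 (median 4051) in HFD and 3725 to 4245 (median 4135) in HFD-O304 islets. Its log2 fold change of 0.20 (adjusted p = 0.0388, SE 0.06) in HFD vs RD islets missed the threshold, and so did -0.07 in HFD-O304 vs HFD islets. B2m ran from 3503 to 4416 (median 3858), 2812 to 3750.5 (median 3338) and 3332 to 4412 (median 3897) in the same order, and HFD islets differed from RD islets by -0.22 (adjusted p = 0.0582, SE 0.07), HFD-O304 from HFD islets by 0.23 (adjusted p = 0.0242, SE 0.07). H2-T23, a nonclassical class I gene whose product is a ligand of natural killer cell receptors, had 0.32 (adjusted p = 0.0381, SE 0.11) in HFD-O304 vs HFD islets. Class I genes are close relatives of each other and CBA mice carry another H2 haplotype than the reference genome, so that reads can be lost or assigned to a neighbour, and levels of H2 genes are uncertain to that extent.

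Of the 7 transcriptional regulators, Irf1 and Irf2 rose in HFD-O304 vs HFD islets. Irf1, which activates class I and immunoproteasome genes, ran from 978 to 1194 (median 1102) in RD, 834 to 1084 (median 1016) in HFD and 1052 to 1344 (median 1203) in HFD-O304 islets. HFD and HFD-O304 samples overlapped narrowly, and the log2 fold change was 0.34 (adjusted p = 8.29e-04, SE 0.07). Irf2, which can compete with IRF1 for the same elements, ran from 868 to 999 (median 947) in RD, 708 to 961 (median 890.0) in HFD and 947 to 1112 (median 1017) in HFD-O304 islets. Its log2 fold change was 0.26 (adjusted p = 0.00397, SE 0.06), with an adjusted p of up to 0.0118 without HFD-O304 replicate 3 or replicate 6. Irf7, the amplifier of interferon alpha genes, ran from 105.6 to 125 (median 110.99) in RD and 42.5 to 98.3 (median 83.1) in HFD islets without overlap, and its value of -0.49 (adjusted p = 0.0410, SE 0.15) nevertheless missed the threshold. Stat2 and Irf9, partners in the complex that binds the ISRE, had 0.18 and -0.14 in HFD-O304 vs HFD islets and did not pass. Irf8, a factor of myeloid cells, had medians of 44.4, 58.6 and 56.1 normalized counts in RD, HFD and HFD-O304 islets and did not pass. Nlrc5 had between 7.08 and 53.5 normalized counts over the HFD samples, a range that spanned all samples of the other groups, and standard errors of 0.32 on the log2 scale. The annotated span of Irf9 overlaps with that of Rnf31 on the same strand, and the span of Tapbp with that of Zbtb22. Read pairs that match exons of both genes were not counted, and whether exons overlap was not examined.

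The antiviral effectors did not move in 1 direction. Of the 10 genes of this group Ifit1 rose and Usp18 and Mx1 fell in HFD-O304 vs HFD islets, and the other 7 did not pass. Ifit1 encodes a protein that binds viral RNA lacking a host cap. Its normalized counts were 118.5 to 194 (median 145) in RD, 47.0 to 135 (median 83.4) in HFD and 148 to 188 (median 164) in HFD-O304 islets, so that all HFD-O304 samples were above all HFD samples while RD samples overlapped with both. It fell in HFD vs RD islets (log2 fold change -0.71, adjusted p = 0.00558, SE 0.16) and rose in HFD-O304 vs HFD islets (0.87, adjusted p = 1.97e-04, SE 0.16), and HFD-O304 vs RD islets gave 0.16. The fall was not called when any 1 of 9 samples was left out, with an adjusted p of up to 0.0191.

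Mx1, a dynamin-like GTPase that blocks influenza virus, was the only member to pass in all 3 comparisons. Its normalized counts were 237 to 352 (median 305) in RD, 92.1 to 220.2 (median 193) in HFD and 74.8 to 112.7 (median 106.1) in HFD-O304 islets. All RD samples were above all samples of the other groups, and 2 HFD samples, replicates 1 and 4, lay within the HFD-O304 range. Mx1 fell by 0.76 on the log2 scale in HFD vs RD islets (adjusted p = 0.00219), by 0.75 in HFD-O304 vs HFD islets (adjusted p = 0.00112) and by 1.52 in HFD-O304 vs RD islets (adjusted p = 1.26e-06), each with a standard error of 0.15 to 0.16. Its median was lowest in HFD-O304 islets, where the median of Ifit1 was highest, although HFD-O304 and RD samples overlapped for Ifit1. Many laboratory strains carry a defective Mx1 allele, and which allele these mice carry was not examined here.

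Usp18 removes ISG15 from proteins and restrains signalling of the type I receptor. It ran from 961 to 1223 (median 1012) in RD, 1018 to 1704 (median 1252) in HFD and 806 to 1065 (median 955) in HFD-O304 islets and fell in HFD-O304 vs HFD islets (log2 fold change -0.47, adjusted p = 5.15e-04, SE 0.09). In HFD vs RD islets its value of 0.31 (adjusted p = 0.0352, SE 0.09) missed the threshold. Isg15, the ubiquitin-like protein that USP18 removes, had 19.04 to 44.0 (median 28.8), 18.3 to 51.0 (median 36.0) and 11.5 to 28.5 (median 25.8) normalized counts in RD, HFD and HFD-O304 islets, and -0.60 (adjusted p = 0.0571, SE 0.22) in HFD-O304 vs HFD islets did not pass. Rsad2, which encodes viperin, had -0.64 (adjusted p = 0.0285, SE 0.18) in HFD vs RD islets, and Ifit3 had -0.62 (adjusted p = 0.0981, SE 0.23). Neither passed. Oasl2 had 0.46 (adjusted p = 0.0351, SE 0.15) in HFD-O304 vs HFD islets. Ifit2, Bst2 and Oas1a had log2 fold changes between -0.27 and 0.27 in all 3 comparisons, with standard errors of 0.14 to 0.20. Ifit3 and Oas1a have close copies, Ifit3b and Oas1g, and read pairs that match both were not counted.

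Both RNA sensors rose in HFD-O304 vs HFD islets. Ifih1 encodes MDA5, which senses long double-stranded RNA and is a susceptibility gene of type 1 diabetes. It ran from 346 to 501 (median 422) in RD, 274.8 to 348 (median 334) in HFD and 409 to 500.1 (median 444) in HFD-O304 islets, and no HFD-O304 sample overlapped with an HFD sample. It fell in HFD vs RD islets (log2 fold change -0.45, adjusted p = 9.68e-04, SE 0.08), where the lowest RD sample lay just below the highest HFD sample, and rose in HFD-O304 vs HFD islets (0.52, adjusted p = 3.81e-05, SE 0.08). HFD-O304 and RD islets differed by 0.07 (adjusted p = 0.789, SE 0.08). Ddx58 encodes RIG-I, the sensor of short RNA with a free triphosphate end. It ran from 528 to 699 (median 579.6), 422 to 628 (median 478) and 528 to 690.4 (median 624) in RD, HFD and HFD-O304 islets, with overlap. Its rise of 0.32 (adjusted p = 0.00829, SE 0.09) in HFD-O304 vs HFD islets was not called when any 1 of 10 HFD or HFD-O304 samples was left out (adjusted p up to 0.0276), and its value in HFD vs RD islets was -0.29 (adjusted p = 0.0300, SE 0.09).

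Among the members Ifnar1, Ifngr1 and Jak1, which are receptor chains and their kinase, only Jak1 passed. Jak1 is the kinase that the receptors of type I, type II and type III interferon share with several cytokine receptors. Normalized counts were 5522 to 6072 (median 5588) in RD, 4502 to 5331 (median 4860.4) in HFD and 5692 to 6855 (median 6115) in HFD-O304 islets, and every HFD sample was below every sample of the other groups. It fell in HFD vs RD islets (log2 fold change -0.22, adjusted p = 0.00863, SE 0.05) and rose in HFD-O304 vs HFD islets (0.34, adjusted p = 2.97e-05, SE 0.05). The fall was not called when any 1 of 17 samples was left out, with an adjusted p of up to 0.0237. The receptor chains Ifnar1 and Ifngr1 had values of -0.031 to 0.041 on the log2 scale in the 3 comparisons, with standard errors of 0.054 to 0.055. Socs1, the inhibitor of JAK kinases, had between 5.22 and 26.7 normalized counts over the HFD-O304 samples and log2 fold changes of 0.30, 0.55 and 0.26 with standard errors of 0.34 to 0.35. The GTPases Gbp2 and Gbp3, which attack the vacuoles of intracellular pathogens, had values between -0.18 and 0.16 and did not pass. Cxcl10 had a mean under 10 normalized counts in every group, with 0 to 22 reads per sample, and at this depth a difference was not detectable.

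Beyond the 38 members, further genes were listed, and 26 genes of interferon signalling, 55 interferon-stimulated genes and 22 genes of class I presentation had enough reads to be tested. The 9 listed genes for interferons themselves had too few. Between HFD-O304 and HFD islets 6 of the 26, 10 of the 55 and 5 of the 22 passed, beside the 11.9% of all genes tested and 18.4% of those with a mean of 10 or more normalized counts given before. Of those that passed, 12 were higher and 9 lower in HFD-O304 islets. By sign alone 51 values were above and 52 below 0, with a median log2 fold change of -0.0093 (members 0.22). With scaling by library size alone 23 passed as higher and 4 as lower (14.6% of all genes in either direction), so that the division by direction depends on the scaling. Among the genes that passed, the 5 largest rises were those of Ifit3b (1.39), Uba7 (0.88), Dhx58 (0.87), Ifnlr1 (0.86) and Cd274 (0.73). Uba7 is the activating enzyme for ISG15, Dhx58 encodes the third member of the RNA sensor family, and Cd274 encodes PD-L1, the ligand that restrains T cells. Cd274 ran from 479 to 684 (median 594) in RD, 343 to 518 (median 398) in HFD and 628 to 832 (median 711) in HFD-O304 islets, with no overlap between HFD and HFD-O304 samples (adjusted p = 2.03e-06). The 5 largest falls among those that passed were those of Socs3 (-0.59), H2-T24 (-0.49), Pdia3 (-0.39), Traf3 (-0.38) and Shisa5 (-0.37). In HFD vs RD islets Uba7 (-0.62), Cd274 (-0.48) and Parp14 (-0.43) fell and Lgals3bp (0.32), Ifi27 (0.29) and Shisa5 (0.28) rose, 3 in each direction, where 3.54% of all genes passed. Socs3 was the only listed gene to pass in HFD-O304 vs RD islets with -0.48 (adjusted p = 0.00867, SE 0.11).

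The deposited library numbers divide the samples into replicates 1 to 4 and 5 to 7 of each group, and every comparison was made again inside each set. All 13 members that passed in HFD-O304 vs HFD islets had the same sign in both sets, as had the 4 that differed between HFD and RD islets and the 2 that differed between HFD-O304 and RD islets. With replicates 1 to 4 alone 6 members passed in HFD-O304 vs HFD islets (7.99% of all genes), and with replicates 5 to 7 alone 7 passed (5.95%). In that comparison Psmb8 had log2 fold changes of 0.85 and 0.61 in the 2 sets, Psmb9 0.97 and 0.78, and Ifih1 0.51 and 0.52. The values of Usp18 (-0.61 and -0.25) and Mx1 (-0.54 and -1.01) lay further apart, with adjusted p = 0.0333 for Usp18 in replicates 5 to 7 and 0.138 for Mx1 in replicates 1 to 4. Psmb10 in HFD-O304 vs RD islets had 0.21 (adjusted p = 0.445) and 0.60 (adjusted p = 0.00676). Mx1 in HFD vs RD islets had -0.98 in replicates 1 to 4 and -0.50 in replicates 5 to 7, and neither passed in its set (adjusted p = 0.0122 and 0.0540). An interaction of diet and set was called for 0 members in any comparison, with 3, 2 and 2 of 38 members at an unadjusted p under 0.05 in HFD vs RD, HFD-O304 vs RD and HFD-O304 vs HFD islets, beside 6.84%, 5.57% and 4.83% of all genes. The number of members called moved with single samples. In HFD vs RD islets it was 2 without RD replicate 5, 6 or 7 or HFD replicate 1, 3, 4 or 5, and 8 without HFD replicate 7. In HFD-O304 vs RD islets it was 4 without HFD replicate 1, where H2-K1 and Psmb8 were called as well, and 1 when any 1 of 13 samples was left out. In HFD-O304 vs HFD islets it stayed between 11 and 13.

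Markers of other cell types were read in the same libraries, because leukocytes and islet endocrine cells express these genes at different levels. The summed CPM of 16 leukocyte and macrophage markers ranged from 195 to 237 in RD, from 183 to 261 in HFD and from 216 to 305 in HFD-O304 islets. HFD-O304 and HFD islets differed by 0.060 on the log2 scale (exact permutation test, adjusted p = 0.604 over 33 list tests), and HFD-O304 and RD islets by 0.21 (exact permutation test, adjusted p = 0.0231). Of this sum the class II genes Cd74, H2-Aa and H2-Ab1, which interferon gamma can induce in other cells too, held 70.9, 26.9 and 19.1 CPM on average in RD islets, 81.5, 28.9 and 21.4 in HFD islets and 89.8, 34.2 and 24.9 in HFD-O304 islets. C1qa, a macrophage gene, had 51.7, 52.9 and 47.2. With this sum as a covariate, 9 members were called higher and 2 lower in HFD-O304 vs HFD islets (11.3% of all genes passed), where H2-K1 and Ddx58 were not called. In HFD vs RD islets 4 were called lower (2.39%), Irf7 among them and Ifit1 not (adjusted p = 0.00363 and 0.0194), and in HFD-O304 vs RD islets Mx1 alone (0.76%). Because the sum rests so much on class II genes, the part of leukocytes in the members' values was not tested by it. T cell markers were near 0, with Cd3e, Cd3g, Cd3d, Cd8a and Cd8b1 under 0.1 CPM on average and a summed CPM of 8 markers between 0.987 and 2.60 over all samples, which gave 0.46 on the log2 scale for HFD-O304 against HFD islets (exact permutation test, adjusted p = 0.0713). The B cell markers Cd79b, Ms4a1 and Pax5 were also under 0.1 CPM, and Cd79a had 1.96, 1.37 and 3.17 CPM on average in RD, HFD and HFD-O304 islets. The summed CPM of the 5 B cell markers ranged from 1.35 to 2.56 in RD, 0.690 to 2.49 in HFD and 1.95 to 4.19 in HFD-O304 islets. HFD-O304 islets were higher than HFD islets by 1.15 on the log2 scale and than RD islets by 0.62 (exact permutation test, adjusted p = 0.0154 and 0.0231). The part of B cells in the members' values was not tested.

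Summed levels of alpha, delta, beta and stromal cell markers did move with the groups. Ppy, the marker of the endocrine PP cells, did not. Its adjusted p was 0.273, 0.898 and 0.258 in HFD vs RD, HFD-O304 vs RD and HFD-O304 vs HFD islets (exact permutation test). The summed CPM of 5 alpha cell markers, chiefly Gcg, ranged from 21819 to 27674 in RD, from 8059.6 to 16788 in HFD and from 22568 to 30823 in HFD-O304 islets. HFD differed from RD islets by -1.05 on the log2 scale and HFD-O304 from HFD islets by 1.25 (exact permutation test, adjusted p = 0.00641 for both), the directions in which Ifit1, Ifih1 and Jak1 differed. Mx1 fell in both of these comparisons, and Usp18 had 0.31, which was not called, and then fell by 0.47. The 2 delta cell markers differed by -0.69 and 0.90 in these comparisons (exact permutation test, adjusted p = 0.0192 and 0.0154), and the sum of 9 beta cell markers by 0.13 and -0.26 (adjusted p = 0.0297 and 0.00641, exact). The beta cell sum was chiefly Ins1, Ins2 and Iapp, and Pdx1 moved with it. Mafa, Ucn3, Slc30a8 and Nkx6-1 moved against it, for example Ucn3 with means of 550, 440 and 630 CPM in RD, HFD and HFD-O304 islets. Of the 9 genes, 1 was called higher and 1 lower in HFD vs RD islets. In HFD-O304 vs HFD islets 2 were called higher and 3 lower. The 7 stromal markers gave 0.64 for HFD against RD islets and -0.98 for HFD-O304 against HFD islets (exact permutation test, adjusted p = 0.0433 and 0.0231). The 8 endothelial markers differed by -0.31 in HFD-O304 vs HFD islets (exact permutation test, adjusted p = 0.0481). The 6 duct markers differed by 0.37 in HFD vs RD islets (adjusted p = 0.0192, exact). The duct sum was chiefly Krt7 and Spp1, with means of 172 and 59.4 CPM in RD and 215 and 87.4 in HFD islets. Krt19, Sox9, Muc1 and Cftr had lower means in HFD than in RD islets. None of the duct markers was called between HFD and RD islets. Between HFD and HFD-O304 islets 3 were called higher in the latter, although the duct sum differed by -0.19 (exact permutation test, adjusted p = 0.101). The 8 acinar markers varied from 19.3 to 6924 CPM over all samples and did not differ between groups beyond that spread. The part of endocrine, stromal, endothelial, duct and acinar cells in the values of the 38 members was not tested.

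**Figure D5:**
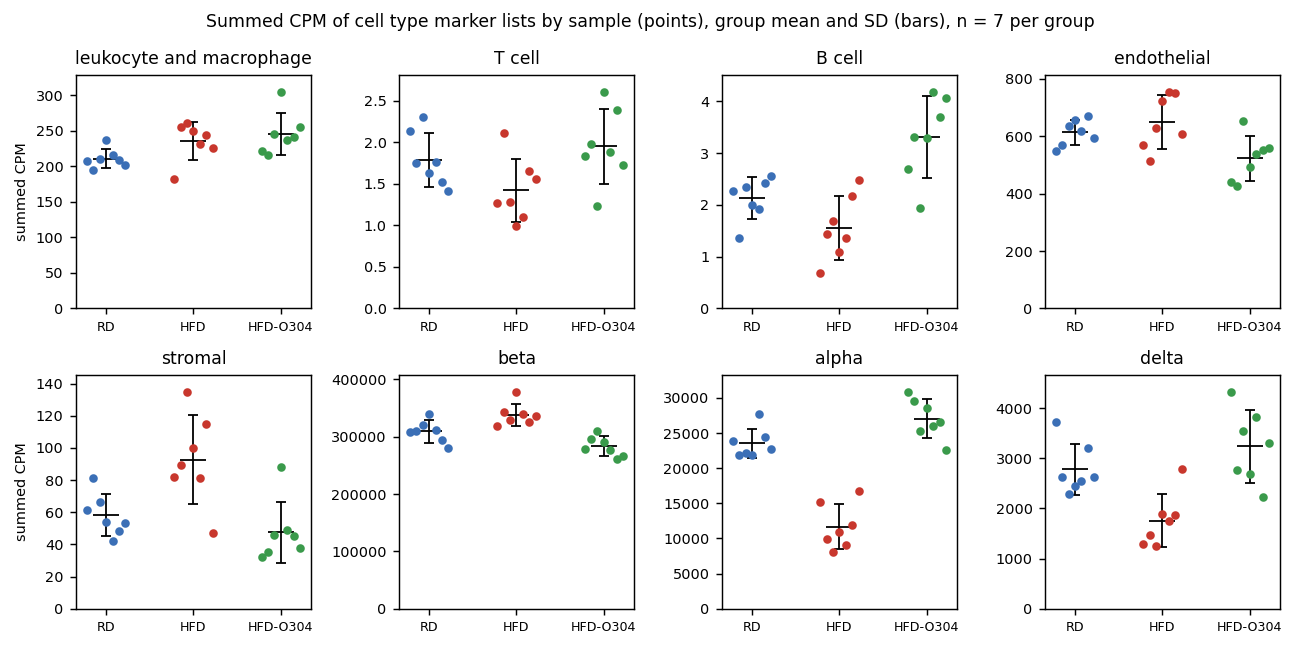
Summed CPM of 8 cell type marker lists, with a point for each sample and bars for the mean and SD of the 7 samples of the RD group (blue), the HFD group (red) and the HFD-O304 group (green), on axes that start at 0. Alpha cell markers lie between 8059.6 and 16788 CPM in HFD islets and at 21819 CPM or above in the other groups, while leukocyte and macrophage markers overlap between all groups.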

How the data were processed

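RNA of hand-picked islets was sequenced by the study as paired-end reads in 21 samples, 7 per group. The authors mapped the reads with STAR to GRCm38 (the STAR version is not given in the sources used here) and deposited raw counts of read pairs per gene, which leave out pairs that match several places (7.28% to 9.03% of all pairs) or several genes (0.935% to 1.04%). Of the unstranded and stranded counts, those of the strand with 28.8 to 36.3 times the pairs of the other were used. Libraries held 13809266 to 48922569 pairs on genes (median 38719302), and genes with at least 10 reads over 21 samples were kept. Gene symbols, exon lengths and positions came from GENCODE M21, in which all 55536 identifiers were found.

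Groups were taken from sample titles. Differences were tested with edgeR 4.0.16 in R 4.3.3 (TMM, quasi-likelihood, all 3 groups in 1 fit, no covariates) and adjusted by Benjamini-Hochberg over all 27229 genes, with a threshold of 0.01. Adjusted p-values of genes are those of this test. To normalize, counts were divided by the size factors of DESeq2, and CPM per kb used exon length and TMM-scaled library totals. The sample titles number the replicates of a group, and the methods of the study describe the samples as pooled islets. Replicates were taken as separate pools, and a p-value measures the spread between such pools. No pair of libraries of the same group agreed within sampling noise, and pairs across groups were not compared. Sums of marker lists and within-library ratios were compared by exact two-sided permutation over 3432 splits of 7 against 7 samples (scipy 1.17.1). The scripts were tested on simulated data.

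The 38 members, the further genes and the marker lists were chosen with earlier results of these data known, and the ratios after their values were seen. Every member that passed is named with its values, the others by range, and of the further genes at most the 5 largest rises and 5 largest falls per comparison. Alternatives covered DESeq2 1.42.0, scaling, filter, strand, only the groups compared, a replicate block, the library set, a leukocyte marker covariate, a looser threshold of 0.05 and fits without each sample. Figures were drawn with matplotlib 3.10.9.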

Additional observations from a re-analysis of the deposited data

Results flagged for a closer look

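In each group of 7 samples the lowest and the highest normalized count of every member with enough reads was compared with its nearest neighbour, relative to the range of the group. In 8 of the groups so examined (7.21%) a sample stood apart, where chance alone gives about 1 in 20. Tap2 was low in HFD replicate 1, with 781 normalized counts against 1098 to 1336 in the other HFD samples, and Oasl2 was low in the same sample, with 63.7 against 114.4 to 136. HFD replicate 1 is the second shallowest of the 21 libraries. Irf9 was high in HFD replicate 2, with 522 normalized counts against 328 to 409.8. In RD islets Irf8 was high in replicate 4 (63.0 against 43.3 to 49.8 normalized counts), Oas1a in replicate 5 (80.5 against 47.0 to 57.1) and Ifit2 in replicate 6 (113.2 against 48.3 to 73.6). In HFD-O304 islets Rsad2 was low in replicate 1, the sample with the differing diet tag, with 90.9 normalized counts against 125 to 150.4. Mx1 was low in HFD-O304 replicate 5, with 74.8 against 98.3 to 112.7. Of these genes only Mx1 passed in any comparison, and it passed in all 3 without that sample. The causes were not tested.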

How the results depend on the processing

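Every member that some fit called in a comparison kept its direction there in all 33 alternatives. Psmb8, Psmb9, Psme1 and Ifih1 in HFD-O304 vs HFD islets and Mx1 in HFD-O304 vs RD islets were called in all 33. The numbers of members called are given with the share of all genes called in the same setting. In HFD vs RD islets (4, 3.54%) the number was 8 with DESeq2 (6.46%) and 2 with only the 2 groups compared (2.44%). It was 8 with the replicate block (5.79%) and 10 with the library set as a covariate (5.92%). With replicates 1 to 4 alone it was 0 (2.25%), and with replicates 5 to 7 alone 1 (1.25%). At an adjusted p under 0.05 it was 11 (7.89%), and it was 2 to 8 when any 1 sample was left out. In HFD-O304 vs RD islets (2, 1.31%) it was 5 with DESeq2 (2.67%), 1 with unstranded counts (1.16%) and 4 with only the 2 groups compared (1.86%). It was 1 with the replicate block (1.99%) and 5 with the library set as a covariate (1.99%). With replicates 1 to 4 alone it was 1 (0.339%), and with the leukocyte marker covariate 1 (0.76%). At an adjusted p under 0.05 it was 5 (2.88%), and it was 1 to 4 with any 1 sample left out. In HFD-O304 vs HFD islets (13, 11.9%) it was 6 with replicates 1 to 4 alone (7.99%) and 7 with replicates 5 to 7 alone (5.95%). With any 1 sample left out it was 11 to 13. Fits on fewer samples have fewer degrees of freedom. Otherwise the causes were not tested. Beside the counts of 0, edgeR gave 17 of 38 members at an unadjusted p under 0.05 with replicates 1 to 4 alone in HFD vs RD islets, and 21 of the further genes with scaling by library size alone in HFD-O304 vs RD islets; DESeq2 was not run in these settings. The numbers of the further genes called are also given with the share of all genes. In HFD vs RD islets (6, 3.54%) it was 10 with the replicate block (5.79%) and 12 at an adjusted p under 0.05 (7.89%). In HFD-O304 vs RD islets (1, 1.31%) it was 4 with DESeq2 (2.67%) and 0 with scaling by library size alone (1.19%). At an adjusted p under 0.05 it was 3 there (2.88%). In HFD-O304 vs HFD islets (21, 11.9%) it was 37 at an adjusted p under 0.05 (18.9%). Scaling by library size alone moved the median log2 fold change of all genes in HFD-O304 vs HFD islets to 0.13. It gave 15 higher and 2 lower members, where 14.6% of all genes passed in either direction. Replicate numbers were not taken to pair the samples: the deviations of same-numbered samples had a mean correlation of 0.199, 0.294 and 0.137 in HFD vs RD, HFD-O304 vs RD and HFD-O304 vs HFD islets, over 0.1 in 4, 6 and 5 of 7 pairs. Cxcl10, Socs1 and Nlrc5 had low counts, and their standard errors were 0.32 to 0.59 on the log2 scale. How far depth or the spread between pools made these errors was not tested.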
